A study of Mus musculus with 10 samples.

Results

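The regions described here are stretches of open chromatin that lie between genes, at a middle distance from them. They are the rows of the deposited count table that overlap no protein-coding gene span of GRCm38.p6 and lie more than 10 kb and at most 100 kb from the nearest span. There were 14360 such regions of 77076 in all (18.63%). The rule uses position alone, though it was chosen with earlier results of these data known. Of the other regions, 48428 overlapped a span, 9881 lay within 10 kb of one, 4354 lay beyond 100 kb, and 53 were on scaffolds with no span. Open chromatin at such distances from genes often marks enhancers, DNA elements that bind transcription factors and can act on promoters across long stretches of sequence. The subsets of regulatory T (Treg) cells differ in the use of such elements. Openness measures access for an enzyme, and neither the activity of an element nor the gene it acts on.

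ATAC-seq, which uses a transposase to tag accessible DNA for sequencing, was run on Treg cells sorted from mouse mixed bone marrow chimeras, with spleen and lymph nodes given as the tissue. Effector Treg (eTreg) and central Treg (cTreg) cells were compared, each either deficient in Fntb (FntbKO) or wild type (WT), with 2 FntbKO eTreg, 2 FntbKO cTreg, 3 WT eTreg and 3 WT cTreg libraries. The product of Fntb is the β chain of the enzyme farnesyltransferase, which adds a lipid anchor to small GTPases and lamins, and the comparisons ask how the subsets differ in accessibility with and without it. Central Treg cells recirculate through lymphoid organs, and effector Treg cells are the activated form with more suppressive and tissue-homing genes. Every group, WT included, came from chimeras, whose blood cells develop from transplanted marrow of different donors. The allele, the Cre driver, the age of the animals and the markers of the sort are not given in the sources used here, nor is it said whether libraries came from separate animals. The p-values therefore measure the spread between these samples, which may be technical.

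Intergenic here means outside protein-coding spans, and 3530 of the regions (24.58%) lay inside the span of another annotated gene, in 3171 cases a long non-coding RNA (lncRNA). In 394 (2.74%) the region overlapped a promoter window of the RefSeq promoter table, 250 bases before to 50 after a gene start. The windows of 4 lncRNA genes are printed because regions over them were called in a comparison below. They show that some of these distant sites lie at annotated starts of non-coding genes. Transcription was not measured here. All are from RefSeq on GRCm38.p6, 5′ to 3′ on the strand of the gene, and capitals mark matches on either strand to an AP-1 motif (TGANTCA), a RUNX motif (TGTGGT) or an ETS motif (CGGAAG), which do not overlap each other. The window of 2610035D17Rik (chr11:113201789-113202088, minus strand) overlaps by 298 bp a region of the Sox9 to Slc39a11 interval that was lower in FntbKO cells. That of Gm19765 (chr7:101547622-101547921, plus strand) shares 247 bp with a region beside Art2b, that of Gm30509 (chr17:31871054-31871353, minus strand) lies wholly inside a region beside Sik1, and that of Gm13982 (chr2:117417648-117417947, minus strand) shares 273 bp with a region beside Rasgrp1.
2610035D17Rik: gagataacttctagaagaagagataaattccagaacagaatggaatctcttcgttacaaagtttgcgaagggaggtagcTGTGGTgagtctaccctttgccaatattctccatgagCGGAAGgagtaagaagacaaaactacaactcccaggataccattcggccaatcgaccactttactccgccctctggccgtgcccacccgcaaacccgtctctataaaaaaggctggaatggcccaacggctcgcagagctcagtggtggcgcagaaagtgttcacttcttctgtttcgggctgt
Gm19765: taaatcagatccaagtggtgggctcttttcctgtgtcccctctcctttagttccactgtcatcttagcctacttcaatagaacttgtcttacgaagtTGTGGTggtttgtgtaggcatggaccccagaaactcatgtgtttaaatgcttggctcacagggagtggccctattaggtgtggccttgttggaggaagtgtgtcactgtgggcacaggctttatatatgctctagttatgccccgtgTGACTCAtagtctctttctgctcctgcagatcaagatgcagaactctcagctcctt
Gm30509: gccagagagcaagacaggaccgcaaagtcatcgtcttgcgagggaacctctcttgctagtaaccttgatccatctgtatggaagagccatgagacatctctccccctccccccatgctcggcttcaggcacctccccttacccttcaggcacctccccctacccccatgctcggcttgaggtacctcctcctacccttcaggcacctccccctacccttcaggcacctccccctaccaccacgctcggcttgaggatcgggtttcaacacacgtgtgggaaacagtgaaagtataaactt
Gm13982: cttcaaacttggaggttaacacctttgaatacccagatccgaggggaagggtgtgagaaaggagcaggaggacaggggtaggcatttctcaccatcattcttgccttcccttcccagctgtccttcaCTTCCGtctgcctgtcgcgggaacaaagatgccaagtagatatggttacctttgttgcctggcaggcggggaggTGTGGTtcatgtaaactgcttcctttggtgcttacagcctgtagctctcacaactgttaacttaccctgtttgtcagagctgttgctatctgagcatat
The first and the last of these windows hold 1 RUNX and 1 ETS match each, that of Gm19765 holds 1 AP-1 and 1 RUNX match, and that of Gm30509 holds none. Of the 32851 promoter windows in the table, 7.81% hold the AP-1 letters, 16.8% the RUNX letters and 16.9% the ETS letters, so single matches are common. A match describes letters and shows no bound factor.

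The 14360 regions lay in 3961 intervals between neighbouring gene spans, with a median of 2 and at most 35 in an interval (between Rap1b and Mdm1). The median distance to the nearest span was 28.3 kb (quartiles 16.96 and 48.83 kb), and 6262 regions lay up to 25 kb, 4625 from 25 to 50 kb and 3473 from 50 to 100 kb away. They had 4855 different nearest genes. S1pr1, the gene of the receptor by which lymphocytes leave lymph nodes, had the most with 32, followed by the anti-proliferative gene Btg1 with 29, Gm52008 with 26 and the Treg surface receptor gene Nrp1 with 25. A nearest gene is a position and not a shown target. Coordinates are those of the table, which does not say whether they start at 0 or 1.

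These regions were narrower and less open than those in genes. Their median width was 336 bp, against 369 bp inside spans and 352 bp over all regions. Their mean level had a median of 3.90 CPM (the count in a region relative to the total of the library, with TMM scaling) with quartiles of 1.94 and 8.98 CPM, against 5.90 CPM inside spans, 4.46 CPM up to 10 kb and 3.30 CPM beyond 100 kb. Per kilobase of width the medians were 10.8 CPM for these regions and 15.0 CPM inside spans. Level hardly moved with distance, with medians of 3.94, 4.04 and 3.67 CPM in the 3 distance bins. The biological coefficient of variation, the spread between libraries beyond counting error, had a median of 23.7% in these regions, 20.1% inside spans, 21.4% over all regions and 25.5% beyond 100 kb.

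The regions took a like share of the counts of every library: 11.9% and 12.1% in FntbKO eTreg, 12.03% and 12.2% in FntbKO cTreg, 11.9%, 12.4% and 12.1% in WT eTreg, and 11.99%, 12.5% and 12.3% in WT cTreg libraries. The shares of the groups overlap. The median region had 3.82 CPM in FntbKO eTreg, 3.78 CPM in FntbKO cTreg, 3.92 CPM in WT eTreg and 3.95 CPM in WT cTreg cells. The most open region per kilobase, 63.1 kb from Macir (chr1:97580220-97580757), had a mean of 302 CPM per kilobase. Its level was 186 and 143 CPM in FntbKO eTreg, 186 and 152 CPM in FntbKO cTreg, 154, 141 and 153 CPM in WT eTreg and 181, 166 and 158 CPM in WT cTreg libraries, and the groups overlapped.

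Library totals were between 5058328 and 15328775 counts. The region over the start of the Fntb span, which is not among the intergenic ones, had 7.48 to 13.1 CPM in the 4 FntbKO libraries and 29.3 to 36.9 CPM in the 6 WT libraries, so every library went with its genotype label. No intergenic region at this distance had Fntb or Foxp3 as its nearest gene. Regions inside the spans of the Treg marker genes Foxp3 and Il2ra summed to between 30.6 and 43.6 CPM and between 157 and 195 CPM over the 10 libraries. For Il2ra, every FntbKO library (190.6 to 194.8 CPM) lay above every WT library (157.1 to 187.4 CPM). Those of the CD8 T cell gene Cd8a summed to 0.689 to 0.801 CPM in FntbKO eTreg and 3.11 to 4.79 CPM in FntbKO cTreg libraries. In WT the Cd8a sums were 1.02 to 1.79 CPM in eTreg and 2.75 to 3.49 CPM in cTreg libraries. The Cd8a sum thus separated the subsets in both genotypes. Those of the myeloid gene Itgam summed to 8.23 to 16.35 CPM. The part of these differences in the results was not tested. On the first principal component of log2(CPM + 0.5) over the 14189 tested intergenic regions, with 34.5% of the variance, FntbKO eTreg libraries lay at 0.4 and 12.4, FntbKO cTreg libraries at -65.0 and -29.1, WT eTreg libraries at 34.6, 27.7 and 53.4, and WT cTreg libraries at -23.6, 4.9 and -15.6. FntbKO cTreg 1 lay lowest of all, but a group of 2 does not show which of its libraries lies apart. WT cTreg 2 and WT eTreg 3 lay highest in their groups. Counts are given with FntbKO cTreg 1 and WT cTreg 2 and without this pair. Leaving out any FntbKO library leaves a single library in its group, so counts from such fits rest on no replicate there.

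Setting WT eTreg against WT cTreg cells asks which distant sites differ between the subsets when Fntb is present. Regions beside Maf, which encodes a transcription factor that acts on Il10, beside Ikzf2, which encodes the Treg factor Helios, and beside the interferon regulatory factor gene Irf8 were more open in WT eTreg cells. Regions beside Ccr7, a homing receptor for lymph nodes, beside Satb1, a chromatin organiser of T cells, and beside Dapl1 were less open. With the edgeR quasi-likelihood test and Benjamini-Hochberg adjustment over all 76216 tested regions, 598 of 14189 tested intergenic regions (4.22%) were called at an adjusted p under 0.05, 337 higher (2.38%) and 261 lower (1.84%). Over all tested regions the share called was 3.44%, with 1.83% higher and 1.61% lower. The median log2 fold change was 1.26 in the higher and -0.94 in the lower regions, and 1.21 and -0.94 without the 19 and 1 where 3 counts or fewer were seen in a group of the comparison. Over all tested intergenic regions the median size of the change was 0.33, against 0.28 over all tested regions. The 171 regions that did not reach the count filter were not tested.

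The share called was higher with distance, at 3.93% up to 25 kb, 4.35% from 25 to 50 kb, 4.56% from 50 to 100 kb and 5.35% beyond 100 kb, while it was 2.71% up to 10 kb and 3.18% inside spans. These differences between position classes were not tested. At the limits of the choice, 13 of 603 regions at 10 to 11 kb were called and 15 of 647 at 9 to 10 kb, and 9 of 232 at 95 to 100 kb and 12 of 214 in the next 5 kb outward. Leaving out WT cTreg 3 gave 108 calls, WT eTreg 3 gave 135, WT eTreg 1 gave 197 and WT cTreg 1 gave 198. For such fits, here and below, the share over all tested regions is not given. Whether the shifts are particular to the intergenic regions is therefore not shown. With FntbKO cTreg 1 and WT cTreg 2 out together, 963 were called. Of the 598 calls, 75 remained when each library in turn was left out. Among the 55 calls picked by the naming rule for this comparison, 20 remained, and the regions described below lean to these. The WT groups did not overlap in 583 of the 598, a share that was not determined for calls over all tested regions. The largest changes were named only among such calls. Non-overlap at a named region therefore adds no support to its call. In bulk samples, a change in the make-up of the sorted cells and a change per cell cannot be told apart.

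**Figure D1:**
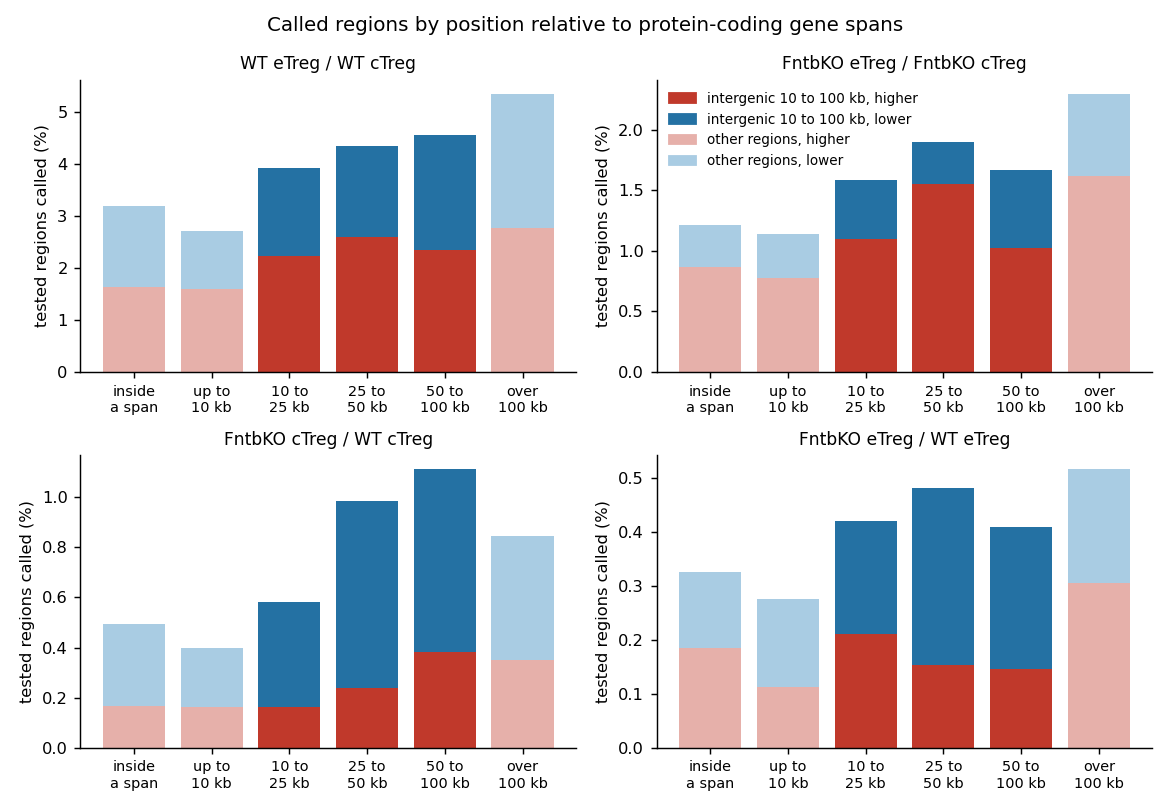
Percent of tested regions called (y axis, edgeR adjusted p under 0.05) in each position class relative to protein-coding spans (x axis), 1 panel per comparison, stacked as higher (red) and lower (blue), with the 3 distance bins of the intergenic regions in full colour. In WT eTreg over WT cTreg the 3 bins stand at 3.93%, 4.35% and 4.56%, above 3.18% inside spans and below 5.35% beyond 100 kb.

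More of the strongly open sites were called than of the weak ones. In 4 classes of mean level, cut at the quartiles of all tested regions, from lowest to highest, 1.73%, 2.88%, 5.97% and 8.33% of the intergenic regions were called in WT eTreg over WT cTreg, against 1.77%, 2.49%, 4.81% and 4.67% of all tested regions. In the highest class, regions inside spans had 3.75% called. The median size of the change over intergenic regions in this comparison was 0.53 in the lowest and 0.19 in the highest class. A higher share called thus does not show larger changes at strongly open sites. In the other 3 comparisons the highest class held 4.34% of intergenic and 2.35% of all regions in FntbKO eTreg over FntbKO cTreg, 1.87% and 0.940% in FntbKO cTreg over WT cTreg, and 1.49% and 0.766% in FntbKO eTreg over WT eTreg.

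**Figure D2:**
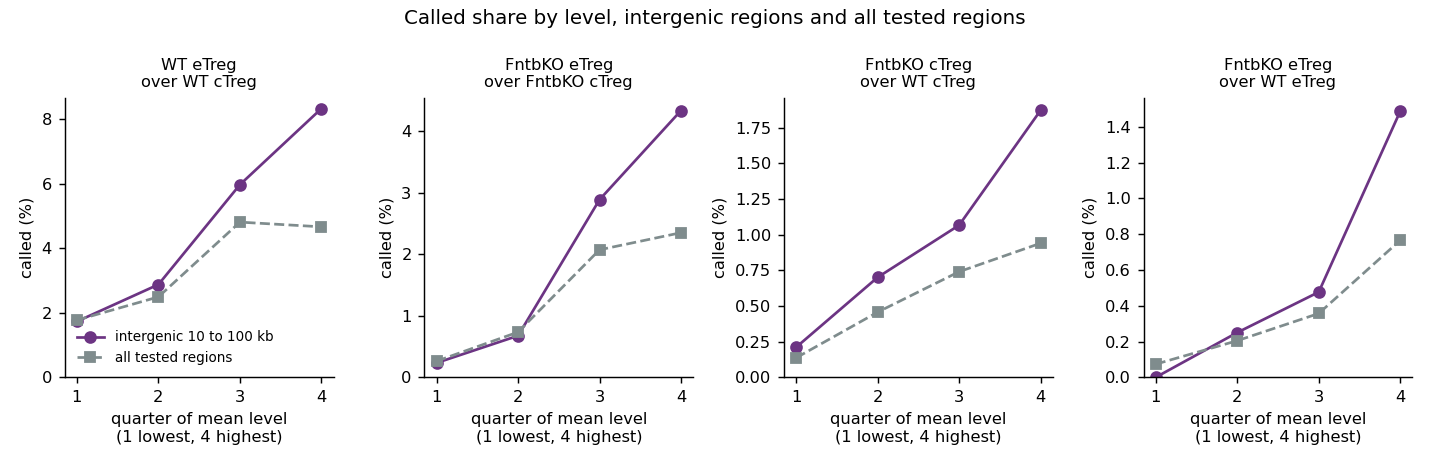
Percent of tested regions called (y axis) by class of mean level (x axis, 1 lowest to 4 highest) for the intergenic regions (purple circles) and all tested regions (grey squares), 1 panel per comparison. The 2 lines lie together in the lowest class and part in the highest, where 8.33% of the intergenic regions and 4.67% of all were called in WT eTreg over WT cTreg.

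The region 35.7 kb from Maf (chr8:115742593-115743118) had 15.6 and 16.9 CPM in FntbKO eTreg, 3.83 and 7.52 CPM in FntbKO cTreg, 22.9, 23.4 and 31.7 CPM in WT eTreg and 8.66, 11.4 and 10.1 CPM in WT cTreg libraries. In both genotypes the eTreg libraries lay above the cTreg libraries without overlap. The log2 fold change in WT was 1.37 (SE 0.20, edgeR adjusted p = 0.000772), and this call did not hinge on a single library. The region 31.8 kb from Ikzf2 (chr1:69498855-69499362) had 5.61 and 4.62 CPM in FntbKO eTreg, 1.64 and 2.72 CPM in FntbKO cTreg, 7.83, 5.88 and 10.3 CPM in WT eTreg and 2.23, 2.24 and 1.90 CPM in WT cTreg libraries, a change of 1.90 in WT (SE 0.33, edgeR adjusted p = 0.00236). A second Ikzf2 region 61.4 kb away (chr1:69469127-69469776) had 10.6, 7.97 and 8.82 CPM in WT eTreg and 3.07, 2.75 and 2.75 CPM in WT cTreg libraries, a change of 1.67 (SE 0.31, edgeR adjusted p = 0.00391). Both Ikzf2 calls also remained without any single library, and the WT groups did not overlap in either region.

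Beside Irf8 (chr8:120716207-120716965, 19.4 kb), WT eTreg libraries had 18.9, 21.1 and 20.7 CPM and WT cTreg libraries 7.26, 11 and 8.03 CPM, a log2 fold change of 1.22 (SE 0.21, edgeR adjusted p = 0.00189). The FntbKO eTreg libraries, at 10.8 and 12.2 CPM, lay below WT eTreg and above FntbKO cTreg at 5.33 and 8.56 CPM. Uspl1 encodes a SUMO protease, and the region 23.5 kb from it (chr5:149160374-149161027) lies in the span of the non-coding gene Mm2pr. It had 29.4, 16.5 and 27.7 CPM in WT eTreg and 8.24, 7.40 and 8.03 CPM in WT cTreg libraries, a change of 1.62 (SE 0.21, edgeR adjusted p = 0.000578). A region 10.4 kb from the chemokine gene Ccl5 (chr11:83540893-83541243) had 5.90, 6.28 and 7.47 CPM in WT eTreg and 1.40, 1.89 and 1.27 CPM in WT cTreg libraries, a change of 2.12 (SE 0.38, edgeR adjusted p = 0.00288). The WT groups did not overlap in any of these 3 regions, and all 3 calls remained without any single library. A region beside Nt5e (chr9:88273270-88273698), which encodes an ectoenzyme that makes adenosine, changed by 1.02 (SE 0.24, edgeR adjusted p = 0.0165), a call lost without WT eTreg 1 or 3 or WT cTreg 1 or 3.

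Among the sites that were less open in WT eTreg cells, the region 14.4 kb from Dapl1 (chr2:59469646-59470296) had 29.6 and 27.9 CPM in FntbKO eTreg, 60.04 and 39.7 CPM in FntbKO cTreg, 22.6, 26 and 15.6 CPM in WT eTreg and 48.6, 42 and 43.7 CPM in WT cTreg libraries. The change was -1.04 (SE 0.16, edgeR adjusted p = 0.00173) in WT, and the groups did not overlap in either genotype. The region 70.6 kb from Satb1 (chr17:51903858-51904322), in the span of the lncRNA Gm20098, had 17.6 and 17.2 CPM in FntbKO eTreg, 32 and 27.3 CPM in FntbKO cTreg, 14, 14.6 and 12.2 CPM in WT eTreg and 26.2, 21.7 and 26.8 CPM in WT cTreg libraries. It changed by -0.87 (SE 0.15, edgeR adjusted p = 0.00244) in WT, again with no overlap. Beside the tyrosine kinase gene Abl2 (chr1:156520870-156521247), levels were 3.98, 4.28 and 3.39 CPM in WT eTreg and 11.9, 9.81 and 15.4 CPM in WT cTreg libraries, a change of -1.67 (SE 0.26, edgeR adjusted p = 0.00112). A region 88.3 kb from Bcl2l11, which encodes the death-inducing protein BIM, changed by -1.19 (SE 0.21, edgeR adjusted p = 0.00244) (chr2:128250838-128251227). These 4 calls in WT remained without any single library, and the WT groups did not overlap in any of the 4.

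Tgfbr2, which encodes a receptor subunit for TGF-β, had regions in both directions. The one 12 kb away (chr9:116187404-116187814) had 8.21 and 8.46 CPM in FntbKO eTreg, 15.6 and 12.4 CPM in FntbKO cTreg, 3.37, 5.28 and 4.41 CPM in WT eTreg and 11.3, 13.8 and 13.8 CPM in WT cTreg libraries. The change in WT was -1.56 (SE 0.23, edgeR adjusted p = 0.000752), kept without any single library. The one 32.9 kb away (chr9:116208241-116208600) had 2.00 and 6.30 CPM in FntbKO eTreg, 2.46 and 4.02 CPM in FntbKO cTreg, 14.8, 11.8 and 14.9 CPM in WT eTreg and 4.47, 8.26 and 5.71 CPM in WT cTreg libraries. It changed by 1.18 (SE 0.29, edgeR adjusted p = 0.0256), lost without WT eTreg 1 or 3 or WT cTreg 1 or 3. WT eTreg libraries were thus lowest in the nearer region and highest in the farther one, with no overlap with WT cTreg in either.

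**Figure D3:**
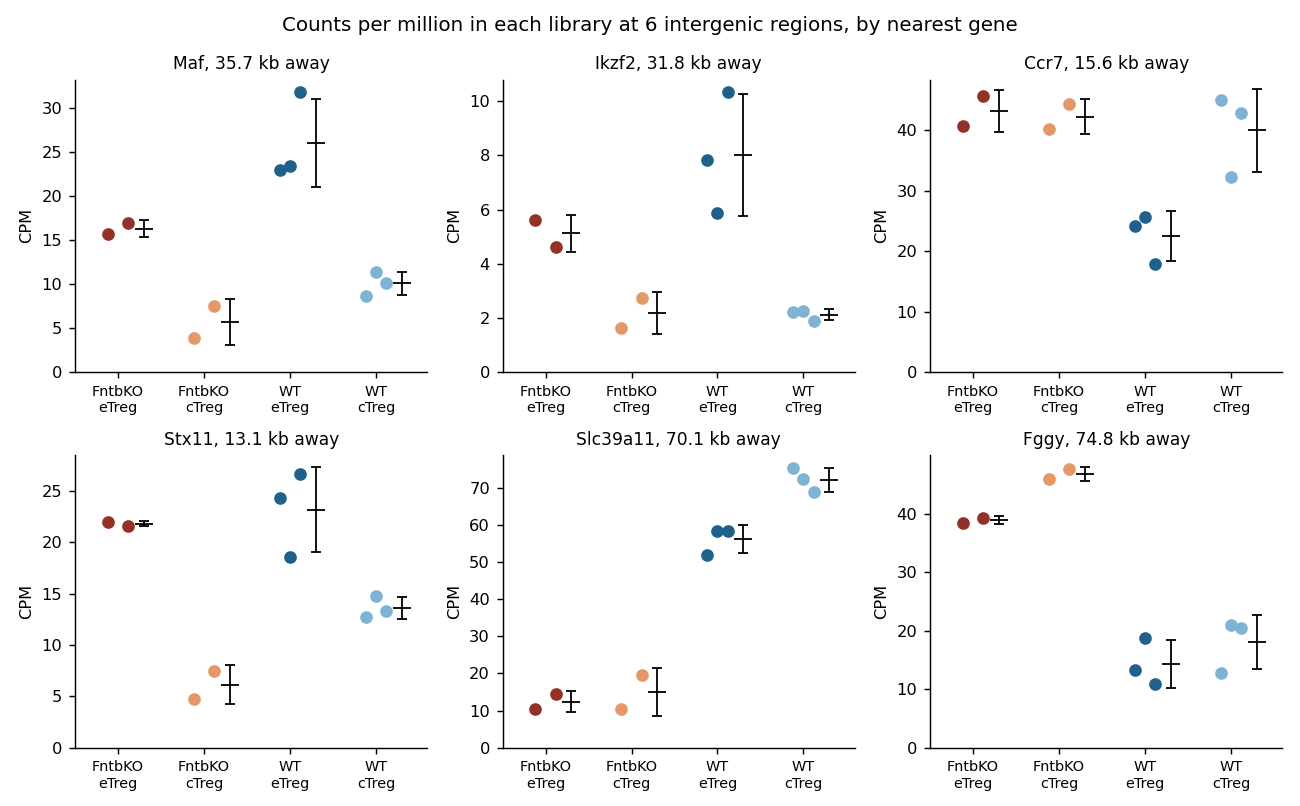
CPM (y axis, from 0) in each of the 10 libraries (points) at 6 intergenic regions, named by nearest gene and distance, with the mean and SD of each group (black bars; n = 2 for FntbKO groups and 3 for WT groups). The Maf and Ikzf2 regions have all eTreg points above all cTreg points of their genotype, the Ccr7 region is lower in the WT eTreg libraries alone, and the Slc39a11 and Fggy regions separate by genotype.

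Grouped by nearest gene, the called regions of effector Treg genes were mostly higher in WT eTreg cells and those of central Treg genes mostly lower. Of 135 tested regions beside 25 of 40 effector genes, 13 rose and 1 fell. The share called was 10.4%, against 3.44% over all tested regions and 4.22% over the intergenic ones. The median log2 fold change was 0.27 over all 135, against -0.01 over all tested regions. The rises were beside Cd44, Ctla4, Icos, Id2, Il10, Il1rl1, Maf, Nt5e, Pdcd1 and Tigit, and the fall was beside Ctla4 too. Of 175 regions beside 18 of 20 central genes, 2 rose and 9 fell (6.29% called, median -0.12), the falls beside Ccr7, Dapl1, Foxp1, Klf2, S1pr1 and Satb1. S1pr1 had regions in both directions, 2 of 32 higher and 2 lower. Regions beside naive CD4 T cell genes, which share Ccr7 and Dapl1 with the central list, had 1 higher and 3 lower of 50 (median -0.25), and the falls were beside these shared genes. Of the 11 naive genes, 7 had regions and Il7r, Igfbp4, Cd4 and Zbtb7b had none. Their summed level was 640 CPM in both FntbKO eTreg libraries, 675 to 684 CPM in FntbKO cTreg, 562 to 625 CPM in WT eTreg and 637 to 674 CPM in WT cTreg libraries. Its part in the central result was not tested.

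Beside the counts of the other lists stands the share of 3.44% called over all tested regions and 4.22% over the intergenic ones. TCR signalling genes had 0 higher and 3 lower of 54 regions (median -0.26), beside Cblb, Cd28 and Rasgrp1. TCR-induced genes had 4 higher and 1 lower of 111 (-0.02), with rises beside Dusp5 and Tox2 and the fall beside Dusp5 too. The AP-1, BATF and IRF genes had 3 higher and 0 lower of 75 (0.01), beside Irf1 and Irf8. The shares called in these last 2 lists were 4.50% and 4.00%. Treg identity genes had 2 higher, both of Ikzf2, and 1 lower, of Lrrc32, among 80 (0.03), a share of 3.75%. Helper T cell genes had 2 higher, of Il17f and Il23r, and 2 lower, of Ifng and Il21, among 53 (0.03). The TGF-β and SMAD genes had 1 higher and 4 lower of 42 (0.01), mTOR and metabolism genes 3 and 2 of 40 (-0.05), apoptosis genes 1 and 2 of 42 (-0.0018), and prenylation and lamin genes none of 15 (0.0021). The single interferon gene region was not called (-0.11). Among markers of other cells, CD8 T and NK cell genes had 1 higher and 2 lower of 23 (-0.38), myeloid genes 2 higher and 1 lower of 14 (0.01), dendritic cell genes 0 and 1 of 6 (0.29), and B cell and erythroid genes none of 2 each (0.07 and -0.71). Summed over the 6 of 11 CD8 and NK cell genes that had regions, the level was 188 to 196 CPM in FntbKO eTreg, 220 to 229 CPM in FntbKO cTreg, 191 to 216 CPM in WT eTreg and 220 to 231 CPM in WT cTreg libraries. Over 4 of 11 myeloid genes it was 182 CPM in both FntbKO eTreg libraries, 137 to 157 CPM in FntbKO cTreg, 183 to 212 CPM in WT eTreg and 157 to 189 CPM in WT cTreg libraries. The CD8 and NK cell sum separated the subsets in both genotypes and the myeloid sum in FntbKO alone, and their part in the subset results was not tested. No region at this distance had the defining genes Cd8a, Csf1r, Lyz2, Itgax or Gata1 as its nearest gene.

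Some intervals held several calls, and those named here were chosen for that number. Between Gtsf1l and Tox2, which encodes a nuclear factor induced by T cell receptor signals, 4 of 15 tested regions rose in WT eTreg cells (median 1.38). Of the 8 between Il19 and Il10, the gene of the main suppressive cytokine of Treg cells, 3 rose (median 1.46). The region 16.1 kb from Il10 (chr1:131003119-131003763) had 19.6 and 23.6 CPM in FntbKO eTreg, 3.15 and 9.60 CPM in FntbKO cTreg, 39.4, 25.4 and 45.1 CPM in WT eTreg and 11.4, 17.2 and 11 CPM in WT cTreg libraries. Neither genotype showed overlap between its subsets there, and the change in WT was 1.48 (SE 0.34, edgeR adjusted p = 0.0486), a call lost without FntbKO eTreg 1 or 2, WT eTreg 1 or 3 or WT cTreg 1 or 3. Between Slc17a6 and Fancf 3 of 4 regions rose (median 1.45), and 3 fell in each of the intervals between Rbms1 and Tank (of 14), Tmem64 and Calb1 (of 9, with 1 more that rose) and Prickle1 and Adamts20 (of 12). The 598 calls had 505 different nearest genes, of which 81 had at least 2 called regions and 21 had calls in both directions.

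FntbKO eTreg against FntbKO cTreg cells gives the subset difference in the absence of Fntb. Sites beside Stx11, a syntaxin of granule release, beside the interleukin receptor gene Il1rl1 and beside Maf and Cd44 were more open in FntbKO eTreg cells, and sites beside Itga4, Klf2 and Satb1 were less open. Of the intergenic regions 242 were called (1.71%), 174 higher (1.23%) and 68 lower (0.479%), against 1.36% of all tested regions, 0.966% higher and 0.390% lower. Their median log2 fold change was 1.30 in the higher and -1.07 in the lower regions. By distance the share called was 1.58%, 1.90% and 1.67% in the 3 bins, with 1.21% inside spans and 2.30% beyond 100 kb. A single call, that beside Stx11, remained when each library in turn was left out. Leaving out FntbKO cTreg 1 or FntbKO eTreg 2 gave 2 calls each, FntbKO eTreg 1 gave 51, WT cTreg 3 gave 149, WT cTreg 2 gave 431 and FntbKO cTreg 2 gave 507. With FntbKO cTreg 1 and WT cTreg 2 out together, 13 were called.

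The Stx11 region (chr10:12977641-12978188, 13.1 kb) had 22 and 21.6 CPM in FntbKO eTreg, 4.79 and 7.52 CPM in FntbKO cTreg, 24.3, 18.6 and 26.6 CPM in WT eTreg and 12.7, 14.8 and 13.3 CPM in WT cTreg libraries. FntbKO cTreg libraries were the lowest of all. The change in FntbKO cells was 1.77 (SE 0.23, edgeR adjusted p = 0.000532), beside 0.76 (SE 0.18, edgeR adjusted p = 0.0187) in WT cells. The region 11 kb from Il1rl1 (chr1:40393223-40393868) had 12.4 and 16.4 CPM in FntbKO eTreg and 1.92 and 4.28 CPM in FntbKO cTreg libraries, and 12.9, 21.7 and 21.6 CPM in WT eTreg and 4.05, 11 and 6.34 CPM in WT cTreg libraries. It was called in FntbKO (edgeR adjusted p = 0.0158) and lost without FntbKO eTreg 1 or 2 or FntbKO cTreg 1. Beside Cd44, an adhesion receptor of activated T cells (chr2:102956853-102957394, 55.2 kb), levels were 56.1 and 55.4 CPM in FntbKO eTreg and 30.1 and 36.4 CPM in FntbKO cTreg libraries, a change of 0.73 (SE 0.13, edgeR adjusted p = 0.0074), lost without FntbKO eTreg 1 or 2 or FntbKO cTreg 1.

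Maf had another region called in FntbKO cells, 64.1 kb away (chr8:115770976-115771402). It had 15.6 and 21.9 CPM in FntbKO eTreg, 6.02 and 9.27 CPM in FntbKO cTreg, 20.7, 24.1 and 28.5 CPM in WT eTreg and 17.3, 21 and 17 CPM in WT cTreg libraries. The 2 FntbKO cTreg libraries were the lowest, and the change was 1.27 (SE 0.23, edgeR adjusted p = 0.00777) in FntbKO cells, lost without FntbKO eTreg 2 or FntbKO cTreg 1, and 0.41 (SE 0.18, edgeR adjusted p = 0.22) in WT cells, where the groups overlapped. The first Maf region changed by 1.45 (SE 0.26, edgeR adjusted p = 0.00732) in FntbKO cells, with the same 2 libraries deciding the call. Beside Il17f, a cytokine gene of helper T cells (chr1:20759635-20760200), the change was 1.95 (SE 0.35, edgeR adjusted p = 0.0075), lost without FntbKO eTreg 2 or FntbKO cTreg 1. Beside Jun, which encodes an AP-1 subunit (chr4:95096706-95097313, in the span of Junos), it was 0.99 (SE 0.20, edgeR adjusted p = 0.0139), lost without FntbKO eTreg 2 or FntbKO cTreg 1.

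Among the falls, the region 81.7 kb from Itga4, which encodes an integrin subunit for homing (chr2:79172924-79173682), had 6.41 and 6.10 CPM in FntbKO eTreg, 20.2 and 13.2 CPM in FntbKO cTreg, 8.91, 8.17 and 5.77 CPM in WT eTreg and 10.6, 8.95 and 11.8 CPM in WT cTreg libraries. It changed by -1.40 (SE 0.28, edgeR adjusted p = 0.0118), lost without FntbKO eTreg 1 or 2 or FntbKO cTreg 1. Beside Klf2, a transcription factor of lymphocyte trafficking (chr8:72295611-72296029), FntbKO eTreg libraries had 8.81 and 11.4 CPM and FntbKO cTreg libraries 19.1 and 19.8 CPM, a change of -0.92 (SE 0.22, edgeR adjusted p = 0.0357) that was lost without FntbKO eTreg 1 or 2, FntbKO cTreg 1 or 2 or WT cTreg 3. The Satb1 region above changed by -0.76 (SE 0.18, edgeR adjusted p = 0.0329) and the Dapl1 region by -0.78 (SE 0.19, edgeR adjusted p = 0.0434), and these calls were lost without FntbKO eTreg 1 or 2, FntbKO cTreg 1 or WT cTreg 3 for Satb1 and without FntbKO eTreg 1 or 2, FntbKO cTreg 1, WT eTreg 1 or WT cTreg 3 for Dapl1. A central gene also had a site in the other direction. The region 58.3 kb from Bach2 (chr4:32179613-32180130), which encodes a repressor of effector genes, had 16 and 21.4 CPM in FntbKO eTreg and 7.38 and 11.7 CPM in FntbKO cTreg libraries, a change of 0.95 (SE 0.23, edgeR adjusted p = 0.0382), lost without FntbKO eTreg 1 or 2, FntbKO cTreg 1, WT eTreg 1 or WT cTreg 3.

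The counts by list in FntbKO cells stand beside shares called of 1.36% over all tested regions and 1.71% over the intergenic ones. Effector genes had 12 higher and 0 lower of 135 regions in FntbKO cells (8.89%), beside Cd44, Icos, Il10, Il1rl1, Maf and Tigit. Their median was 0.37, against -0.0042 over all tested regions. Central genes had 1 higher and 4 lower of 175 (2.86%, median -0.16). Helper genes had 1 higher and 0 lower of 53 (1.89%, median 0.08), and AP-1 and IRF genes 1 and 0 of 75 (1.33%, 0.13). TCR-induced genes had 1 higher and 0 lower of 111 (0.901%, 0.05), and prenylation and lamin genes 1 and 0 of 15 (6.67%, 0.09). Apoptosis genes had 1 higher and 2 lower of 42 (7.14%, 0.05), and naive CD4 genes 1 and 1 of 50 (4.00%, -0.12). No call was made beside genes of the other 10 lists, whose medians were -0.10 for Treg identity, -0.14 for TCR signalling, 0.0021 for mTOR and metabolism, -0.08 for TGF-β, 0.51 for interferon, 0.21 for B cell, -0.25 for CD8 and NK cell, 0.29 for myeloid, 0.35 for dendritic cell and 0.02 for erythroid genes. The interval between Gtsf1l and Tox2 again held several calls, with 3 of 15 higher (median 1.66), as did those between Cpox and Gpr15 (3 of 4 higher) and between Rbms1 and Tank (3 of 14 lower).

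Set side by side, the subset changes of the genotypes had the same sign at nearly all called sites. These comparisons share no library. Of the regions called higher, 65 were called in both genotypes, which is 37.4% of the 174 in FntbKO and 19.3% of the 337 in WT. Of those called lower it was 35, or 51.5% of the 68 in FntbKO and 13.4% of the 261 in WT, and 0 were called in opposite directions. Among tested regions outside the group the shares were 36.1% and 19.2% for higher, and 42.8% and 10.2% for lower calls. Regions called higher in WT had a median change of 0.95 in FntbKO and 1.26 in WT, and 95.9% had the same sign. At regions called lower in WT the medians were -0.58 in FntbKO and -0.94 in WT, with 96.6% of the same sign. At regions called in FntbKO they were 1.30 in FntbKO and 0.65 in WT for higher, and -1.07 in FntbKO and -0.71 in WT for lower calls. In each pair of medians the regions were chosen by the value of 1 genotype, so the 2 sizes cannot be compared as such. Regions called higher in both included those beside Maf, Tigit, Il1rl1, Il17f, Cd44, Stx11 and Tox2, and regions called lower in both those beside Klf2, Satb1, Dapl1, S1pr1, Bcl2l11 and Rbms1.

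**Figure D4:**
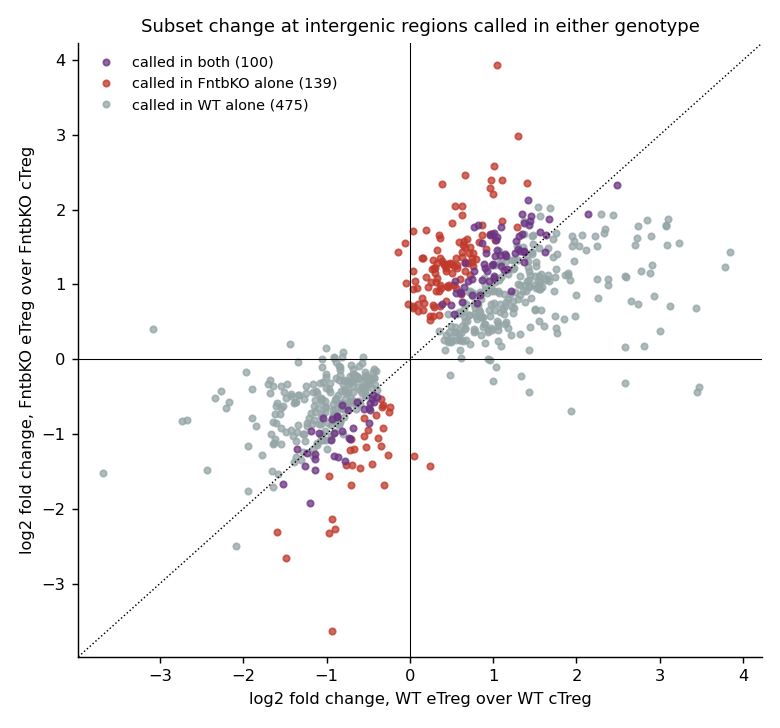
Log2 fold change of eTreg over cTreg in FntbKO (y axis) and in WT (x axis) at 714 intergenic regions called in either genotype, after 26 with a group of at most 3 counts were left out, coloured by where they were called, with the line of equal change dotted. The 100 regions called in both lie in the upper right and lower left quadrants.

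Whether the subset difference itself depends on the genotype was tested as an interaction, and no intergenic region was called (0 of all tested regions, 0%). The smallest adjusted p was 1 with edgeR. At an unadjusted p under 0.05 there were 638 intergenic regions with edgeR (4.50%, against 4.07% of all tested regions), 448 with DESeq2 and 669 with limma-voom, and neither of these tools called any. The region with the smallest p lay 81.2 kb from Btg1 (chr10:96535394-96535851) and had 29.2 and 30.9 CPM in FntbKO eTreg, 28.4 and 28.1 CPM in FntbKO cTreg, 15.5, 19.3 and 16.6 CPM in WT eTreg and 28.6, 34.4 and 27.3 CPM in WT cTreg libraries. The WT eTreg libraries lay below all others, and the difference between the subset changes was 0.89 (SE 0.21, edgeR adjusted p = 1). The Ccr7 region (chr11:99170670-99171340, 15.6 kb, in the span of the lncRNA Gm32249) had the same shape, with 40.7 and 45.6 CPM in FntbKO eTreg, 40.2 and 44.3 CPM in FntbKO cTreg, 24.1, 25.7 and 17.8 CPM in WT eTreg and 45, 32.2 and 42.9 CPM in WT cTreg libraries. Its subset change was 0.03 in FntbKO and -0.82 (SE 0.14, edgeR adjusted p = 0.00201) in WT, and the difference of the changes was 0.85 (SE 0.21, edgeR adjusted p = 1).

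Other regions with a small unadjusted p differed in the FntbKO subsets. The region 31.8 kb from Txndc16 (chr14:45102065-45102663) had 32.9 and 35.8 CPM in FntbKO eTreg, 11.8 and 15.9 CPM in FntbKO cTreg, 28.8, 21.9 and 29 CPM in WT eTreg and 19.1, 22.4 and 22 CPM in WT cTreg libraries, and its interaction value was 0.97 (SE 0.24, edgeR adjusted p = 1). A second Bcl2l11 region (chr2:128190226-128190627, 27.7 kb) had 5.21 and 5.71 CPM in FntbKO eTreg and 14.5 and 12.7 CPM in FntbKO cTreg libraries, which do not overlap, and 9.40, 9.36 and 8.82 CPM in WT eTreg and 9.77, 8.95 and 8.03 CPM in WT cTreg libraries, which do. Its interaction value was -1.35 (SE 0.34, edgeR adjusted p = 1). None of these values passed, so a call in 1 genotype and not in the other is not shown to differ between them.

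The comparison of FntbKO cTreg with WT cTreg cells asks which distant sites differ in the central subset without Fntb. In this and the next comparison, loss of Fntb and any other difference between the marrow donors of the genotypes cannot be told apart. A run of sites between Sox9 and Slc39a11, a zinc transporter gene, was less open in FntbKO cells, and sites beside Fggy, a carbohydrate kinase gene, and Sik1, a kinase of the AMPK family, were more open. Of the intergenic regions 119 were called (0.839%), 34 higher (0.240%) and 85 lower (0.599%), against 0.568% of all tested regions, 0.190% higher and 0.378% lower. The share called was 0.582%, 0.983% and 1.11% in the 3 distance bins, 0.494% inside spans and 0.844% beyond 100 kb. The median log2 fold change was 1.33 in the higher and -1.45 in the lower regions. Of the 119 calls, 9 remained when each library in turn was left out. Leaving out FntbKO cTreg 1 gave 10 calls, WT cTreg 2 gave 60 and WT cTreg 3 gave 79. With FntbKO cTreg 1 and WT cTreg 2 out together, 11 were called.

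The same question in the effector subset, FntbKO eTreg against WT eTreg, gave 62 calls (0.437%), 25 higher (0.176%) and 37 lower (0.261%), against 0.350% of all tested regions, 0.181% higher and 0.169% lower. Of the 37 lower calls, 9 lay in the interval between Sox9 and Slc39a11. The lean to lower calls turned in some alternatives, with 30 higher and 28 lower by limma-voom, 23 and 16 with spans of all annotated genes, 29 and 22 without WT eTreg 2, and 7 and 4 without FntbKO eTreg 1. The order of the counts of the 2 subsets turned too, with 175 in eTreg and 71 in cTreg cells when only the compared groups were fitted, 85 and 10 without FntbKO cTreg 1, and 110 and 60 without WT cTreg 2, and the difference between the counts was not tested. In the 3 distance bins the share was 0.420%, 0.481% and 0.409%, with 0.325% inside spans and 0.516% beyond 100 kb. The median log2 fold change was 1.01 in the higher and -1.30 in the lower regions, and 1 call remained without each library in turn. Leaving out FntbKO eTreg 2 gave 3 calls, WT eTreg 3 gave 6, FntbKO eTreg 1 gave 11, WT eTreg 1 gave 17, WT cTreg 3 gave 35 and WT cTreg 2 gave 110. With FntbKO cTreg 1 and WT cTreg 2 out together, 150 were called, against 11 in cTreg cells.

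The Slc39a11 region 70.1 kb away (chr11:113173931-113174741), in the span of the lncRNA 2610035D17Rik, had 10.4 and 14.4 CPM in FntbKO eTreg, 10.4 and 19.6 CPM in FntbKO cTreg, 51.9, 58.5 and 58.4 CPM in WT eTreg and 75.3, 72.3 and 68.8 CPM in WT cTreg libraries. The genotypes lay far apart in both subsets. FntbKO differed from WT by -2.14 (SE 0.19, edgeR adjusted p = 1.36e-05) in eTreg and by -2.20 (SE 0.18, edgeR adjusted p = 1.95e-06) in cTreg cells, and neither call hinged on a single library. Of the 17 tested regions between Sox9 and Slc39a11, 9 were lower in FntbKO eTreg cells, with a median change of -1.73 (-2.49 to -0.81), and 12 in FntbKO cTreg cells, with a median of -2.10 (-2.66 to -0.87). The region over the start of 2610035D17Rik, whose sequence is given above (chr11:113201391-113202086), had 4.01 and 4.53 CPM in FntbKO eTreg, 2.46 and 5.83 CPM in FntbKO cTreg, 9.52, 12.2 and 13.6 CPM in WT eTreg and 10.5, 9.29 and 11.6 CPM in WT cTreg libraries. It changed by -1.44 (SE 0.31, edgeR adjusted p = 0.0342) in eTreg, lost without FntbKO eTreg 1 or 2, WT eTreg 1, 2 or 3 or WT cTreg 3. In cTreg cells it changed by -1.25 (SE 0.29, edgeR adjusted p = 0.0419), lost without FntbKO eTreg 1 or 2, FntbKO cTreg 1, WT eTreg 1, 2 or 3 or WT cTreg 1, 2 or 3. Regions of 1 interval share their place on the chromosome and are not independent of each other.

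**Figure D5:**
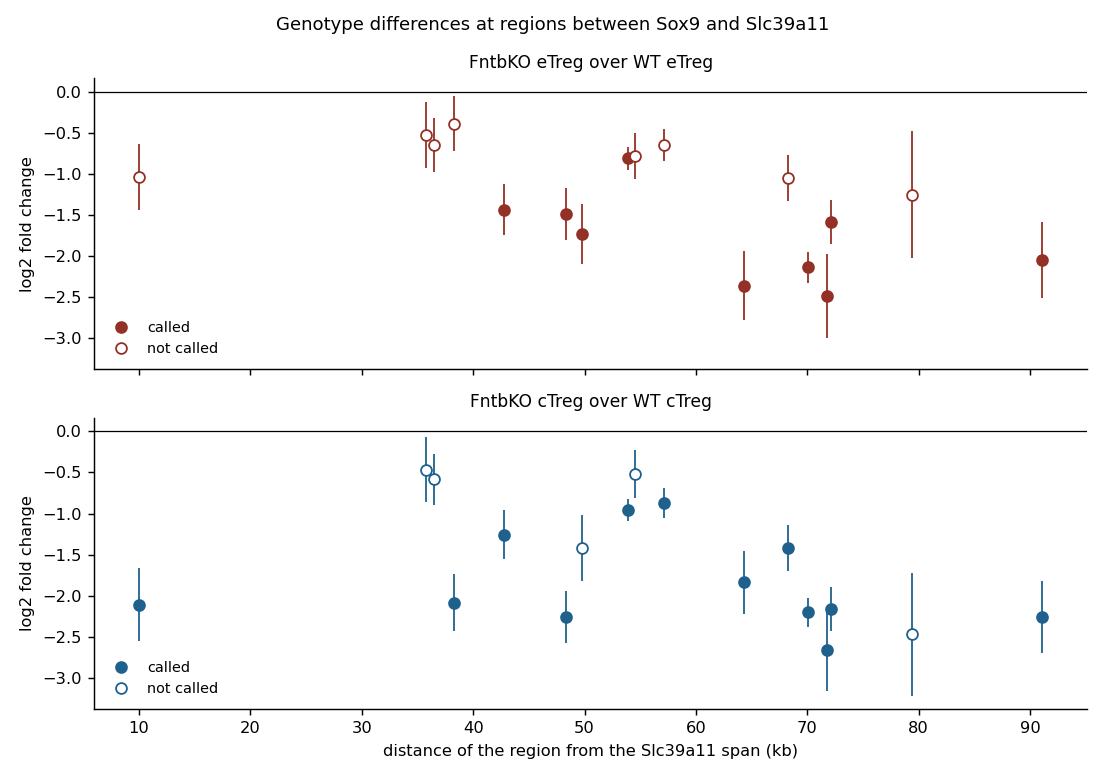
Log2 fold change of FntbKO over WT (y axis, bars SE of the fit) at the 17 tested regions between Sox9 and Slc39a11, by distance from the Slc39a11 span in kb (x axis), in eTreg (upper) and cTreg cells (lower), filled where called. All 17 values lie below 0 in both subsets, and 9 are called in eTreg and 12 in cTreg cells.

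Beside Fggy, the region 74.8 kb away (chr4:95481918-95482681, in the span of Gm830) had 38.5 and 39.4 CPM in FntbKO eTreg, 46 and 47.7 CPM in FntbKO cTreg, 13.2, 18.8 and 10.9 CPM in WT eTreg and 12.8, 21 and 20.4 CPM in WT cTreg libraries. All FntbKO libraries lay above all WT libraries. The change was 1.42 (SE 0.19, edgeR adjusted p = 0.00191) in eTreg, lost without FntbKO eTreg 2, and 1.37 (SE 0.18, edgeR adjusted p = 0.000486) in cTreg cells, kept without any single library. The region 34.7 kb from Sik1 (chr17:31809035-31809526) had 18 and 21.2 CPM in FntbKO eTreg, 16.1 and 19.1 CPM in FntbKO cTreg, 8.31, 9.16 and 8.82 CPM in WT eTreg and 4.47, 6.71 and 8.13 CPM in WT cTreg libraries. It too had every FntbKO library above every WT library, with a change of 1.17 (SE 0.22, edgeR adjusted p = 0.0169) in eTreg, lost without FntbKO eTreg 1 or 2 or WT eTreg 1 or 3, and 1.44 (SE 0.23, edgeR adjusted p = 0.00154) in cTreg cells, kept without any single library. The region over the start of Gm30509, on the other side of Sik1 (chr17:31870946-31871503), changed by 1.06 (SE 0.25, edgeR adjusted p = 0.0468) in cTreg cells, a call that was lost without FntbKO cTreg 1 or 2, WT eTreg 1, 2 or 3 or WT cTreg 1, 2 or 3.

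Sites lower in FntbKO cells included 1 beside Adamts10, a secreted protease gene (chr17:33484030-33484437, 39.2 kb). It had 4.01 and 2.95 CPM in FntbKO eTreg, 2.46 and 3.83 CPM in FntbKO cTreg, 8.31, 10.4 and 10.0 CPM in WT eTreg and 12.6, 12.7 and 12.9 CPM in WT cTreg libraries, with no overlap of the genotypes. The change was -1.50 (SE 0.29, edgeR adjusted p = 0.0181) in eTreg, lost without FntbKO eTreg 1 or 2 or WT eTreg 3, and -1.96 (SE 0.28, edgeR adjusted p = 0.000486) in cTreg cells, kept without any single library. Art2b encodes an ADP-ribosyltransferase of the mouse T cell surface, and the region 19.7 kb from it (chr7:101555464-101555996, in the span of Gm19765) had 3.61 and 5.12 CPM in FntbKO eTreg, 1.37 and 3.24 CPM in FntbKO cTreg, 11.6, 11 and 13.6 CPM in WT eTreg and 12.3, 9.63 and 8.03 CPM in WT cTreg libraries. The genotypes again did not overlap. It changed by -1.41 (SE 0.31, edgeR adjusted p = 0.0368) in eTreg, lost without FntbKO eTreg 1 or 2, WT eTreg 1, 2 or 3 or WT cTreg 3, and by -1.99 (SE 0.32, edgeR adjusted p = 0.00198) in cTreg cells, lost without FntbKO cTreg 1. The region over the start of Gm19765 (chr7:101547675-101548131) changed by -0.99 (SE 0.24, edgeR adjusted p = 0.0632) in eTreg, which did not pass, and -1.50 (SE 0.24, edgeR adjusted p = 0.0024) in cTreg cells, lost without FntbKO cTreg 1.

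These 2 genotype comparisons share no library. Of the regions called lower, 24 were called in both, which is 64.9% of the 37 in eTreg and 28.2% of the 85 in cTreg cells, and 7 were called higher in both, 28.0% of the 25 in eTreg and 20.6% of the 34 in cTreg cells. Of the 24, 8 lay between Sox9 and Slc39a11, and without that interval 16 were called lower in both, 57.1% of 28 in eTreg and 21.9% of 73 in cTreg cells. Among tested regions outside the group the shares were 48.9% and 22.2% for lower, and 17.7% and 18.02% for higher calls. The 24 regions had 17 nearest genes, Slc39a11, Adamts10, Art2b, Ddr1, Lrrc8c and Nfe2l2 among them, and the 7 had 6, with Fggy, Sik1 and Tnc. A region beside Nfe2l2, which encodes the oxidative stress factor NRF2 (chr2:75763248-75763678), had 0.801 and 1.38 CPM in FntbKO eTreg, 0.274 and 1.04 CPM in FntbKO cTreg, 5.78, 6.18 and 4.75 CPM in WT eTreg and 3.63, 3.44 and 2.96 CPM in WT cTreg libraries. The FntbKO libraries held few counts there, and the calls (edgeR adjusted p = 0.0275 in eTreg and 0.0341 in cTreg) were lost without FntbKO eTreg 1 or 2 or WT eTreg 1, 2 or 3 in eTreg and without FntbKO cTreg 1, WT eTreg 1 or 2 or WT cTreg 1, 2 or 3 in cTreg cells.

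Other genotype calls were made in 1 subset. In cTreg cells, the region 22.5 kb from Cxcr4, a chemokine receptor for bone marrow and lymphoid homing (chr1:128614750-128615241), had 83.8 and 81.9 CPM in FntbKO cTreg and 52.8, 51.6 and 57.7 CPM in WT cTreg libraries. It changed by 0.61 (SE 0.11, edgeR adjusted p = 0.00731), lost without FntbKO cTreg 1, and the eTreg groups, at 57.7 and 65.9 CPM in FntbKO and 58.1, 57.3 and 46.1 CPM in WT, overlapped. The farther Maf region changed in FntbKO cTreg cells by -1.22 (SE 0.22, edgeR adjusted p = 0.00566), lost without FntbKO cTreg 1. In eTreg cells, the Ccr7 region was higher in FntbKO by 0.93 (SE 0.15, edgeR adjusted p = 0.00495), lost without FntbKO eTreg 2 or WT eTreg 3. Among 29 regions nearest to Btg1, 2 were higher in FntbKO eTreg cells and 2 lower in WT eTreg than in WT cTreg cells. The one 71 kb away (chr10:96693826-96694160) had 25.6 and 25.3 CPM in FntbKO eTreg, 27.5 and 25.1 CPM in FntbKO cTreg, 11.7, 13.7 and 12.6 CPM in WT eTreg and 26.1, 15.5 and 27.9 CPM in WT cTreg libraries, and its genotype change in eTreg was 1.01 (SE 0.20, edgeR adjusted p = 0.0173), lost without FntbKO eTreg 1 or 2 or WT eTreg 1 or 3. The median genotype change in eTreg over the 29 regions was 0.34.

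Beside Chst15, a sulfotransferase gene (chr7:132402431-132403103), the levels were 15.2 and 18.4 CPM in FntbKO eTreg, 10.7 and 22.2 CPM in FntbKO cTreg, 35.9, 36.3 and 39 CPM in WT eTreg and 18.4, 22.4 and 17.6 CPM in WT cTreg libraries. WT eTreg libraries lay above all others, and the genotype change in eTreg was -1.12 (SE 0.21, edgeR adjusted p = 0.0181), lost without FntbKO eTreg 1 or 2 or WT eTreg 1 or 3. The Tgfbr2 region that was highest in WT eTreg cells changed by -1.61 (SE 0.34, edgeR adjusted p = 0.0362), lost without FntbKO eTreg 1 or 2, WT eTreg 1 or 3 or WT cTreg 3. A neighbour 36.7 kb from the span (chr9:116212040-116212499) had 9.22 and 12.6 CPM in FntbKO eTreg and 19.3, 24.5 and 24.1 CPM in WT eTreg libraries, a change of -1.02 (SE 0.22, edgeR adjusted p = 0.0364), lost without FntbKO eTreg 1 or 2, WT eTreg 1, 2 or 3 or WT cTreg 3. A region 12.1 kb from the meiotic recombination gene Mnd1 (chr3:84075506-84075868) had 9.42 and 9.45 CPM in FntbKO eTreg and 2.17, 2.59 and 2.04 CPM in WT eTreg libraries, which lay well apart. The change was 2.04 (SE 0.34, edgeR adjusted p = 0.00603), lost without FntbKO eTreg 1 or 2 or WT eTreg 3. Beside the transferrin receptor gene Tfrc (chr16:32572528-32573036) it was 1.47 (SE 0.33, edgeR adjusted p = 0.0387), lost without FntbKO eTreg 1 or 2, WT eTreg 1 or 3 or WT cTreg 3.

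The counts by list between genotypes stand beside shares called of 0.350% in eTreg and 0.568% in cTreg cells over all tested regions. Effector genes had 0 of 135 called in eTreg (median -0.16) and 2 lower in cTreg, beside Ctla4 and Maf (-0.17), and central genes had 1 higher of 175 in each, beside Ccr7 in eTreg (0.08) and Cxcr4 in cTreg (0.07). The medians over all tested regions were -0.00091 in eTreg and -0.0059 in cTreg. The Nfe2l2 region was the single call among AP-1, BATF and IRF genes in each subset (0.11 in eTreg and 0.06 in cTreg). In eTreg cells TGF-β and SMAD genes had 2 lower of 42, both of Tgfbr2 (-0.11), naive CD4 genes 1 higher of 50, that of Ccr7 (0.08), and the Tfrc region was the single call for mTOR and metabolism (-0.0029) and for erythroid genes (1.42 over 2 regions). The summed level of these 2 regions, of 2 of 9 erythroid genes, was 13.6 to 18.7 CPM in FntbKO eTreg, 14.2 to 17.6 CPM in FntbKO cTreg, 3.39 to 8.57 CPM in WT eTreg and 7.61 to 11.4 CPM in WT cTreg libraries, and its part in the genotype results was not tested. Gata1, Klf1 and the globin genes of that list had no region at this distance. In cTreg cells these 4 lists had no call, with medians of -0.17, 0.03, -0.07 and 0.69. Treg identity, helper, TCR-induced, TCR signalling, prenylation and lamin, apoptosis, interferon, B cell, CD8 and NK cell, myeloid and dendritic cell genes had no call in either subset. Their medians ran from -0.45 (B cell, 2 regions) to 0.77 (interferon, 1 region) in eTreg and from -0.59 (B cell) to 0.18 (TCR signalling) in cTreg cells.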

How the data were processed

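The sources used here are 1 table of read counts per region for 10 ATAC-seq libraries, deposited by the authors as whole, unnormalised counts over regions of mm10 (GRCm38). Per the submitters' processing notes the tools included MACS2 2.1.1, bedtools, Picard 2.9.4, Trimmomatic 0.36 and SAMtools. The aligner and the way peaks were merged are not given in the sources used here. Between 70.2% and 83.2% of the deposited counts of the intergenic regions were even numbers in each library, so halved counts were tried as an alternative. Totals were 5058328 to 15328775 counts, which cover counting error only, since mates of a pair and PCR copies are no independent molecules.

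Regions were placed against the protein-coding spans of the RefSeq gene table for GRCm38.p6, which was also used for nearest genes and non-coding spans. Regions were kept for testing by filterByExpr (14189 of 14360), scaled by TMM, and fitted over all 76216 tested regions and 10 libraries with 4 group means (edgeR 4.0.16 in R 4.3.3, robust quasi-likelihood, 6 residual degrees of freedom). P-values were adjusted by Benjamini-Hochberg over the whole table and called under 0.05. The fit was also run on simulated counts, with 100 regions changed by a log2 of 1 and 100 by 2. These were drawn from the mean levels of all tested regions and the trend of spread with level. They leave out spread particular to a region, and recovery in the intergenic regions alone was not determined. In the pairwise comparisons it recovered 24% to 37% of the smaller and 70% to 82% of the larger changes. For the interaction it recovered 17% and 48%, so more interactions of either size were missed than found. Alternatives used limma 3.58.1, DESeq2 1.42.0, other scalings, filters, halved counts, other definitions of the regions and libraries left out. Python 3.11.15, pandas 2.3.3, numpy 2.4.6 and matplotlib 3.10.9 made tables and figures.

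Named regions follow a rule: per comparison the 10 largest rises and 10 largest falls among called regions at or above the median level whose groups do not overlap, 1 per nearest gene, then up to 3 called regions per gene list, the regions of the 5 intervals with the most calls in 1 direction, the 5 highest per kilobase and the 5 with the smallest interaction p. Non-overlap of the compared groups was thus part of the choice. It held in all 242 calls of FntbKO eTreg over FntbKO cTreg, all 119 of FntbKO cTreg over WT cTreg and all 62 of FntbKO eTreg over WT eTreg. The same share among calls over all tested regions was not determined. These counts therefore show no trait of the intergenic regions and add no support to the calls. Other named regions, such as those over lncRNA starts, were chosen after their values were seen. The 18 gene lists are central, effector and identity genes of Treg cells, helper T, AP-1, BATF and IRF, TCR-induced, TCR signalling, prenylation and lamin, mTOR and metabolism, TGF-β and SMAD, apoptosis and interferon genes, and markers of naive CD4 T, B, CD8 T and NK, myeloid, dendritic and erythroid cells. The regions, lists and tests were chosen with earlier results of these data known.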

Additional observations from a re-analysis of the deposited data

How the results depend on the processing

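No interaction call was made in any alternative (0 to 0 regions when a library was left out). Counts of called regions when each library in turn was left out ran from 108 to 832 for WT eTreg over WT cTreg (598 as reported), 2 to 507 for FntbKO eTreg over FntbKO cTreg (242), 10 to 175 for FntbKO cTreg over WT cTreg (119) and 3 to 110 for FntbKO eTreg over WT eTreg (62). Without WT cTreg 2 and FntbKO cTreg 1 they were 963, 13, 11 and 150 in that order. With distance measured to spans of all annotated genes they were 391, 168, 73 and 39, from 8918 tested regions, and the median level was 3.499 CPM in place of 3.895 CPM. Halved counts gave 424 in FntbKO eTreg over FntbKO cTreg and 102 in FntbKO eTreg over WT eTreg. A fit of the compared groups alone gave 71 in FntbKO cTreg over WT cTreg and 175 in FntbKO eTreg over WT eTreg. Other scalings, filters, DESeq2, limma-voom, an outer limit of 50 kb and an inner limit of 20 kb kept every count within 1.5 times the reported one. The cause of these shifts was not tested, and the counts over all tested regions in the same fits are not given.

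With the replicate number as a block the counts were 903, 576, 233 and 135 in the same order, and 0 for the interaction. Same-numbered libraries correlated in their deviations from the group means by -0.10 to 0.21 (13 pairs, 5 over 0.1), and others by -0.21 to 0.13 (24 pairs). Between the subsets of a genotype, same-numbered pairs were all positive, at 0.21 and 0.21 in FntbKO and 0.19, 0.09 and 0.06 in WT. Differently numbered ones had -0.21 in FntbKO and -0.15 to 0.05 in WT. The FntbKO values mirror each other because deviations in a group of 2 are opposite. The rule asked every same-numbered pair to pass 0.1, so the numbers were not taken as pairing the samples. Whether the subsets of a genotype are paired is not settled by this.

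Over 136 named values and 20 alternatives each, 2193 of 2720 kept their direction and call, 527 kept the direction and lost the call, and 0 reversed. The values were chosen as called changes and the alternatives refit the same libraries, so kept directions add no support. The losses were uneven. Without WT cTreg 3, 64 of the 136 lost the call, and without WT eTreg 3 it was 61. At this depth 171 regions had too few counts to be tested.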

Other observations

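Some of these regions lay over microRNA hairpins. The region over Mir8096 had a mean of 56.8 CPM, that over Mir713 50.6 CPM, those over Mir9-1 and Mir9-2 3.28 and 3.55 CPM, and that over Mir3093 1.67 CPM. The smallest edgeR adjusted p over the 4 pairwise comparisons was 0.14, at the Mir713 region in FntbKO eTreg over FntbKO cTreg.

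The shares called were compared between regions inside a non-coding gene span and those outside any span. They were 4.50% inside and 4.12% outside in WT eTreg over WT cTreg, 1.75% and 1.69% in FntbKO eTreg over FntbKO cTreg, 0.974% and 0.795% in FntbKO cTreg over WT cTreg, and 0.602% and 0.383% in FntbKO eTreg over WT eTreg. These differences were not tested.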
